A study of Homo sapiens with 4 samples.

Results

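The genes of MHC class I antigen presentation were followed in enzalutamide-resistant and control cells of C4-2, an established human prostate cancer line. They were 9 genes, taken by symbol: the heavy chain genes HLA-B, HLA-C, HLA-E and HLA-F, the light chain gene B2M, the peptide transporter genes TAP1 and TAP2, the loading factor gene TAPBP and the regulator gene NLRC5. Each matched 1 of the 60483 gene rows by its Ensembl identifier in GENCODE 29 (GRCh38), and all 9 passed the filter on low counts, as did 20325 genes in all. The 4 libraries of total RNA comprised 2 of cells labelled C4-2-ENZ, the enzalutamide-resistant phenotype, and 2 of cells labelled C4-2-CON, the control phenotype. Enzalutamide is an antagonist of the androgen receptor, and the labels state culture with or without it for 1 month. Resistance and the presence of the drug go together in these groups, so their effects cannot be told apart. Both groups derive from 1 cell line, and no label states that the replicates came from separate cultures. The p-values therefore reflect the variation between these libraries alone, and it may be technical.

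MHC class I molecules display peptides from inside the cell to CD8+ T cells and natural killer cells. Proteasomes cut proteins into peptides, the TAP1 and TAP2 proteins form the transporter that carries them into the endoplasmic reticulum, and tapasin, the product of TAPBP, holds empty class I molecules beside that transporter while peptides are loaded. Each finished molecule pairs a heavy chain with beta-2-microglobulin, the product of B2M. NLRC5 is recruited to class I promoters through factors bound to their X and Y boxes and raises transcription of heavy chain genes and of several loading genes, and interferons act on many of the same genes, in part through IRF1. Low class I expression is common in prostate cancer.

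Gene counts totalled 45033885 and 39047453 in C4-2-ENZ replicates 1 and 2, against 25589724 and 29866008 in C4-2-CON replicates 1 and 2. Reads not aligned made up 20.32% and 20.66% of records in C4-2-ENZ libraries and 36.95% and 34.16% in C4-2-CON libraries, and the part of this difference in the results was not tested. All 10 markers of prostate luminal cells that were examined had at least 1 CPM (read counts scaled by library size) in both groups, and they summed to 4630 CPM in each C4-2-ENZ library and to between 3240 and 3260 CPM in C4-2-CON libraries. The 18 leukocyte markers summed to between 10.7 and 12.2 CPM in C4-2-ENZ libraries and between 5.7 and 6.23 CPM in C4-2-CON libraries. Of these, CD3D and CD3E had no count in any library and PTPRC had 4 and 2 counts in C4-2-ENZ libraries, against 2 and 3 counts in C4-2-CON libraries. The integrin genes ITGAM and ITGB2 were the leukocyte markers that rose most in level, to 3.206 ± 0.241 and 3.868 ± 0.359 CPM in C4-2-ENZ, against 0.3131 ± 0.0905 and 1.621 ± 0.0777 CPM in C4-2-CON (SD, n = 2). Of the 18, 5 passed the count filter, with 3 higher and 1 lower (edgeR adjusted p below 0.05). Over all genes tested 33.0% were higher and 31.7% lower. The lower marker was CD4, at 5 and 2 counts in C4-2-ENZ, against 12 and 9 in C4-2-CON. The 10 fibroblast markers summed to 8.91 to 9.4 CPM in C4-2-ENZ, against 9.3 to 11.4 CPM in C4-2-CON. The 10 endothelial markers summed to 4.19 to 4.83 CPM, against 5.05 to 5.78 CPM. In bulk RNA, fewer cells of a type and less RNA per cell cannot be told apart.

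The upstream sequences of these genes carry letters known from class I regulation. Whether these letters bear on the differences in level was not tested. RefSeq windows from 250 bases before to 50 bases after the start (GRCh38.p14) were at hand for 7 of the 9 genes, namely HLA-B, HLA-C, HLA-F, B2M, TAP1, TAP2 and TAPBP. The stretches below are reference sequence, not that of C4-2 cells, and are given 5′ to 3′ on the strand of the gene. Capitals mark GGGGA, any base and TCCC (the kappaB-type enhancer A of class I genes), TTTCACTT (the interferon-type element of HLA-B and HLA-C), GAAA, 2 bases of any kind and GAAA (a core of interferon response elements) and the pair TGACG and ATTGG at a spacing of 20 or 21 bases (X2-type and Y box letters).
HLA-B, bases -180 to -41, chr6:31357220-31357359, minus strand: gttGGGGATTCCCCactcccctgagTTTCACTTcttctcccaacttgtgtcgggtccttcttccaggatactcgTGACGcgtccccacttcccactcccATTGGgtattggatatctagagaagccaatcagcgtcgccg
HLA-C, bases -180 to -41, chr6:31272133-31272272, minus strand: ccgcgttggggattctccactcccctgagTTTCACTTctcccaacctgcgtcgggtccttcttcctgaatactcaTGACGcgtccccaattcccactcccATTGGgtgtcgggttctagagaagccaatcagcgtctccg
HLA-F, bases -180 to -41, chr6:29723254-29723393, plus strand: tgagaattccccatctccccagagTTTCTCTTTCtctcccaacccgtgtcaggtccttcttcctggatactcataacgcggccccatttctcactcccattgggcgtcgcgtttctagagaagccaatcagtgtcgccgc
B2M, bases -150 to -31, chr15:44711367-44711486, plus strand: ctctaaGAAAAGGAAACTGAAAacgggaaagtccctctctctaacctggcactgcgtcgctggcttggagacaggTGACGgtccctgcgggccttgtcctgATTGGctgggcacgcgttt
TAP1, bases -150 to -91, chr6:32853795-32853854, minus strand: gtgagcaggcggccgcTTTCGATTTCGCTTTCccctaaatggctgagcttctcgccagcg
TAPBP, bases -60 to -1, chr6:33314079-33314138, minus strand: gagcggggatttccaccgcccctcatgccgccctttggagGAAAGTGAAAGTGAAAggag
TAP2, bases -80 to -21, chr6:32838760-32838819, minus strand: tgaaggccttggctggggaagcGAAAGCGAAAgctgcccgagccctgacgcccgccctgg

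The motifs were matched letter for letter on both strands of all 35116 promoter windows of 300 bases. TGACG followed by 20 or 21 bases of any kind and then ATTGG was in the windows of HLA-B, HLA-C and B2M, and in 53 windows in all (0.151%). The interferon-type core, GAAA with GAAA after 2 bases of any kind, was in the windows of HLA-F, B2M, TAP1, TAP2 and TAPBP, and in 3.57% of all windows. Its stricter form, with T as the second of those bases, was in those of B2M and TAPBP and in 0.803% of all windows. GGGGA, any base and TCCC was in the HLA-B window alone among those of the 7 genes and in 0.424% of all windows. TTTCACTT was in those of HLA-B, HLA-C and TAPBP, in TAPBP overlapping the interferon-type core on the other strand, and in 1.62% of all windows. The shorter ATTGG was in 34.6% of all windows, among them those of HLA-B, HLA-C, HLA-F, B2M and TAP1. TGACGC was in 9.14% of all windows, among them those of HLA-B, HLA-C and TAP2. TGACGNNA was in 7.55% of all windows and in none of those of the 7 genes. A match is a description of letters and not a shown binding site, and TTTCACTT, TGACGC and the spaced pair were chosen after the sequences had been read.

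Of the 9 class I and loading genes, 7 were higher in C4-2-ENZ cells, B2M was lower and TAP2 was not called. A call means an adjusted p below 0.05 in the quasi-likelihood test of edgeR, adjusted over all 20325 genes. By that rule 33.0% of all genes tested were higher, 31.7% were lower and 64.7% were called either way, so a call alone says little in this comparison. At least 2-fold higher were HLA-B, HLA-C, HLA-E, TAP1 and TAPBP, 5 of 9, against 7.58% of all genes tested. That count was 2 of 9, HLA-B and TAP1, against 7.06% of all genes with the correction for length and GC content, and 7 of 9, against 11.1%, with total count scaling. None of the 9 was at least 2-fold lower, against 10.1% of all genes tested. The median log2 fold change of the 9 genes was 1.06, and that of all genes tested was -0.016. Corrected for length and GC content, these medians were 0.768 and -0.0454. The 9 genes were chosen with earlier results of these data known, so their comparison with all genes is a description only. CPM of the groups did not overlap, higher in C4-2-ENZ, for 7 of the 9 genes and for 40.4% of all genes, and they did not overlap, lower in C4-2-ENZ, for B2M and for 40.9% of all genes. Fold changes are on the TMM scale. Scaling by total counts raised the median of all genes by 0.188 and raised the log2 fold change of each of the 9 genes. Genes already higher could not turn lower by it, so it was no test of the 7 that stayed higher. B2M was still called lower, at -0.247. Over all genes tested, 8616 of 20325 were then higher, against 6705 with TMM, or 64.4% of called genes, against 51%.

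**Figure D1:**
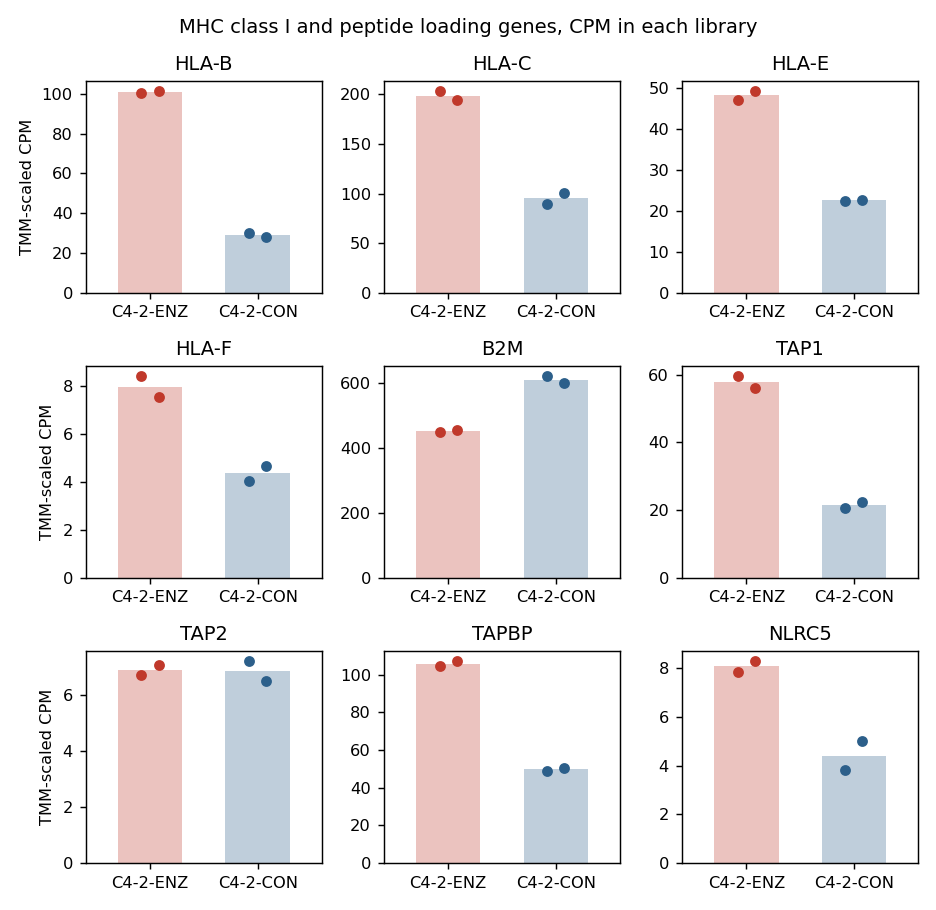
TMM-scaled CPM of the 9 genes in each library (points) with the mean of the group (bars), C4-2-ENZ left of C4-2-CON, on linear axes that start at 0. In 7 panels both C4-2-ENZ points lie above both C4-2-CON points, for B2M they lie below (451.2 against 610.1 CPM on average), and for TAP2 they overlap.

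HLA-B and HLA-C encode classical heavy chains, which present peptides to CD8+ T cells. HLA-B, on chromosome 6 at 31269491 to 31357188, had 100.5 and 101.4 CPM in C4-2-ENZ libraries, against 30.08 and 28.19 CPM in C4-2-CON libraries. It stood more than 3-fold apart between groups that each spanned less than 2 CPM, and its rise of 1.79 on the log2 scale (SE 0.0476, edgeR adjusted p = 5.81e-11) was the largest of the 9, with 2.39% of all genes at or above it. HLA-C, at 31268749 to 31272130 on the same chromosome, had 203.4 and 194.3 CPM in C4-2-ENZ, against 89.74 and 100.6 CPM in C4-2-CON. The groups were far apart relative to their spread, and the log2 difference was 1.06 (SE 0.054, edgeR adjusted p = 9.29e-09). HLA-B rose more than HLA-C: its reads were 0.494 and 0.522 of those of HLA-C in C4-2-ENZ libraries and 0.335 and 0.28 in C4-2-CON libraries, a ratio that needs no scaling between libraries.

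HLA-E and HLA-F encode nonclassical heavy chains. HLA-E binds mainly signal peptides of other class I chains and is read by the NKG2A receptor of natural killer cells. HLA-E, at 30489467 to 30494205 on chromosome 6, had 47.04 and 49.13 CPM in C4-2-ENZ, against 22.41 and 22.64 CPM in C4-2-CON, a difference of 1.09 on the log2 scale (SE 0.055, edgeR adjusted p = 8.41e-09). HLA-F, at 29722775 to 29738528, had 8.388 and 7.517 CPM in C4-2-ENZ, against 4.022 and 4.662 CPM in C4-2-CON. Both rose, HLA-F by 0.87 on the log2 scale (SE 0.114, edgeR adjusted p = 3.43e-05) on 405 and 312 counts in C4-2-ENZ and 96 and 131 counts in C4-2-CON.

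Reads of HLA genes can be lost or misassigned, because the genes are close copies, because a cell's alleles differ from the reference and because some annotated exons overlap. Reads without a unique alignment were 22.68% and 24.04% of records in C4-2-ENZ libraries, against 28.32% and 26.71% in C4-2-CON libraries. The part of this difference in the HLA values was not tested. In GENCODE 29 transcripts, exact 50-base stretches also found in another gene were 2.72% of those of HLA-B, 5.38% of HLA-C, 4.34% of HLA-E and 0.98% of HLA-F. Exons of other genes overlapped 18.91% of the exonic bases of HLA-B and 28.47% of those of HLA-F, nearly all on the opposite strand, and the sources used here do not say whether the authors' counting used strand.

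B2M moved against the heavy chains. B2M, on chromosome 15 at 44711487 to 44718877, had 447.9 and 454.5 CPM in C4-2-ENZ, against 620.3 and 599.9 CPM in C4-2-CON. All C4-2-ENZ values were below all C4-2-CON values, 1.35-fold on average, at a log2 ratio of -0.44 (SE 0.0344, edgeR adjusted p = 4.19e-07). B2M remained called lower on other scales, at a log2 ratio of -0.247 with total count scaling, the smallest over the 12 alternatives. The summed reads of HLA-B, HLA-C, HLA-E and HLA-F were 0.802 and 0.775 of those of B2M in C4-2-ENZ libraries, against 0.236 and 0.26 in C4-2-CON libraries. That ratio was 3.18-fold higher in C4-2-ENZ, and an exact permutation test on its logarithm gave p = 0.333 (two-sided), the smallest that 2 against 2 libraries allow. The ratio is of raw counts, without the correction for length and GC content. With that correction the log2 fold change of B2M was -0.354. Those of HLA-B, HLA-C, HLA-E and HLA-F were 1.63, 0.91, 0.963 and 0.674, against 1.79, 1.06, 1.09 and 0.869 without it.

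**Figure D2:**
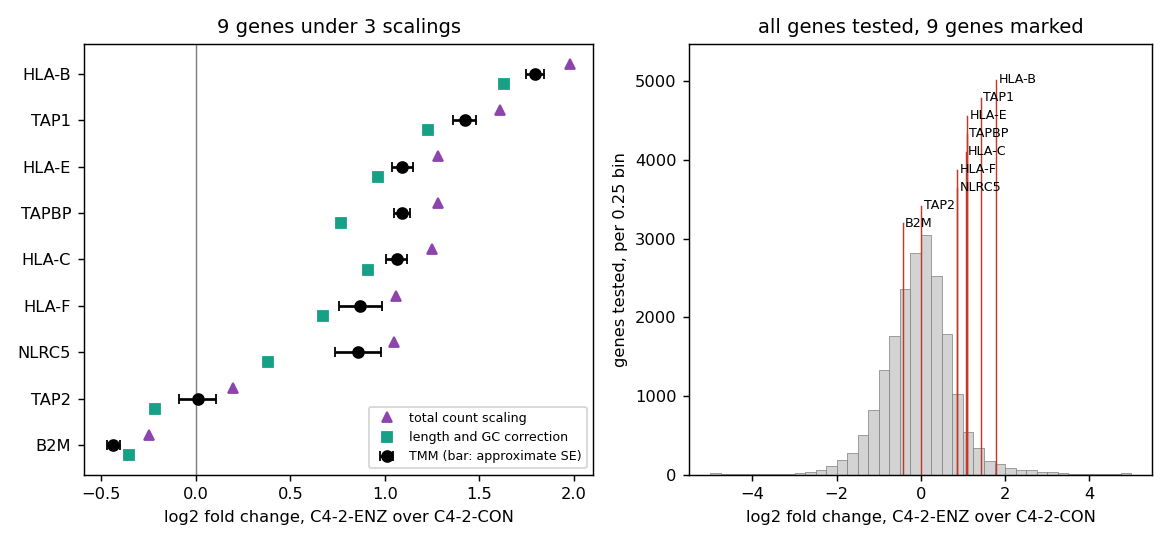
Left, log2 fold changes (C4-2-ENZ over C4-2-CON) of the 9 genes with TMM scaling (circles, bars for the approximate SE), total count scaling (triangles) and the length and GC correction (squares). Right, the distribution of all 20325 genes tested with the 9 genes marked, values beyond the axis drawn in its end bins. Of the 9 genes, 7 lie right of 0 on each scale, B2M lies left of 0 on each, and TAP2 lies on either side of it.

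TAP1 and TAP2 encode the partners of 1 heterodimer, and their RNA levels differed in response. TAP1, on chromosome 6 at 32845209 to 32853978, had 59.59 and 55.99 CPM in C4-2-ENZ, against 20.65 and 22.42 CPM in C4-2-CON. It rose by 1.42 on the log2 scale (SE 0.0598, edgeR adjusted p = 1.88e-09), the second largest of the 9. TAP2, at 32821833 to 32838780, had 6.711 and 7.084 CPM in C4-2-ENZ, against 7.206 and 6.513 CPM in C4-2-CON. The groups overlapped, and the log2 difference was 0.01 (SE 0.0978, edgeR adjusted p = 0.936), a sign that turned in 5 of the 12 alternatives, to -0.22 with the length and GC correction. Reads of TAP1 were 8.88 and 7.9 times those of TAP2 in C4-2-ENZ libraries, against 2.87 and 3.44 times in C4-2-CON libraries. The ratio was 2.67-fold higher in C4-2-ENZ, with no overlap between groups (exact permutation p = 0.333, two-sided, the smallest possible). TAP2 values rest on the part of the gene that can be counted: 2064 of its 6390 exonic bases lie in exons of AL669918.1, another gene on the same strand, where reads can be dropped as ambiguous. Its promoter stretch holds GAAAGCGAAA, a match to the interferon-type core that TAP1 and TAPBP also have.

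TAPBP, on chromosome 6 at 33299694 to 33314387, rose 2.13-fold. It had 104.6 and 107.1 CPM in C4-2-ENZ, against 49.02 and 50.36 CPM in C4-2-CON, and C4-2-ENZ was 1.09 higher on the log2 scale (SE 0.0442, edgeR adjusted p = 1.4e-09). The spread within each group was under 3 CPM. NLRC5, on chromosome 16 at 56989485 to 57083531, was low in both groups. It had 7.871 and 8.288 CPM in C4-2-ENZ, against 3.812 and 5.018 CPM in C4-2-CON, from 380 and 344 counts against 91 and 141 counts. NLRC5 rose by 0.86 on the log2 scale (SE 0.122, edgeR adjusted p = 6.92e-05). The size depended on the correction for length and GC content, under which it was 0.38 (edgeR adjusted p = 0.0107), and it was 0.69 without C4-2-CON replicate 1.

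**Figure D3:**
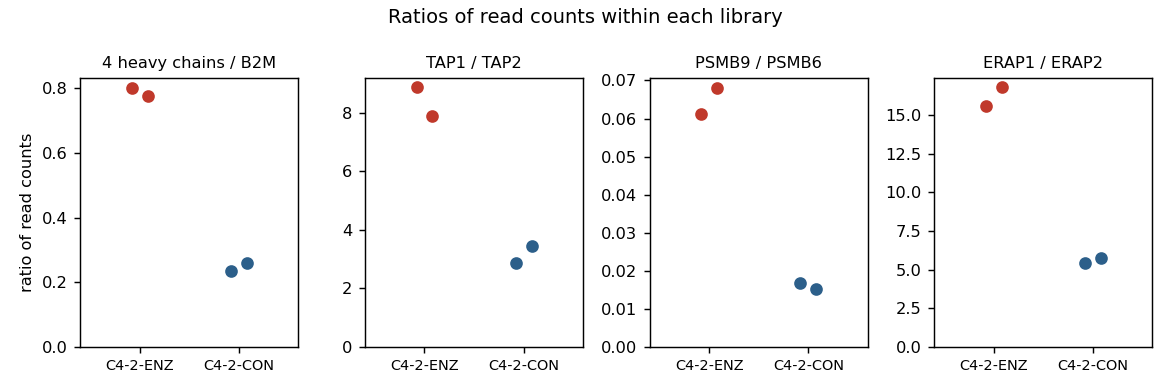
Ratios of read counts between genes of the same library, 1 point per library, C4-2-ENZ left of C4-2-CON, on linear axes that start at 0. The ratio of the 4 heavy chain genes to B2M is 0.802 and 0.775 in C4-2-ENZ, against 0.236 and 0.26 in C4-2-CON, and the ratios of TAP1 to TAP2, PSMB9 to PSMB6 and ERAP1 to ERAP2 are also higher in both C4-2-ENZ libraries.

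Levels were compared between genes as CPM per kilobase of merged exons. In C4-2-ENZ cells the order was HLA-C (79.3 ± 2.58), B2M (74.2 ± 0.772), HLA-B (33.1 ± 0.213), TAPBP (20.9 ± 0.35), HLA-E (16.2 ± 0.497), TAP1 (12 ± 0.529), HLA-F (1.83 ± 0.142), TAP2 (1.08 ± 0.0413) and NLRC5 (0.652 ± 0.0239), in CPM per kilobase (SD, n = 2). No neighbours in that order overlapped. In C4-2-CON cells B2M was highest at 100.4 ± 2.37 CPM per kilobase, above HLA-C at 38 ± 3.06, TAPBP at 9.83 ± 0.188, HLA-B at 9.55 ± 0.439, HLA-E at 7.57 ± 0.0526 and TAP1 at 4.48 ± 0.26. TAP2 (1.07 ± 0.0767), HLA-F (1 ± 0.104) and NLRC5 (0.356 ± 0.0688) followed, and the neighbours TAPBP and HLA-B, and TAP2 and HLA-F, overlapped. The place of HLA-C above B2M depended on the length used: per kilobase of the principal transcript, B2M was highest in C4-2-ENZ (264.6 ± 2.75, against 129.5 ± 4.21 for HLA-C) as in C4-2-CON (357.8 ± 8.44, against 61.95 ± 4.99). On that length TAP1 also came before HLA-E in C4-2-ENZ, at 19.5 ± 0.859 and 18.5 ± 0.568.

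Genes that help load peptides moved unevenly. Of 12 such genes 8 were higher, 3 lower and 1 not called, with a median log2 fold change of 0.29. Over all genes tested, 33.0% were higher and 31.7% lower. The aminopeptidase ERAP1, which trims peptides to fit the class I groove, rose to 79.45 ± 1.17 CPM in C4-2-ENZ, against 30.24 ± 1.14 CPM in C4-2-CON (SD, n = 2), 2.63-fold. Its relative ERAP2 had 4.902 ± 0.186 CPM in C4-2-ENZ and 5.414 ± 0.46 CPM in C4-2-CON and was not called (edgeR adjusted p = 0.327). TAPBPL, which encodes the tapasin-related peptide editor TAPBPR, rose 2.65-fold, to 21.35 ± 0.468 CPM in C4-2-ENZ, against 8.061 ± 0.0248 CPM in C4-2-CON. PRKCSH and GANAB, the subunits of glucosidase II in glycoprotein folding, rose 1.43-fold and 1.34-fold. Their log2 fold changes of 0.514 and 0.417 were 0.187 and 0.22 with the length and GC correction. The general chaperones of the loading complex changed little. CALR, chosen with CANX and PDIA3 after their values were seen, had 1332 ± 9.75 CPM in C4-2-ENZ and 1449 ± 2.98 CPM in C4-2-CON, a log2 fold change of -0.12 that turned to 0.07 with total count scaling. CANX had a log2 fold change of -0.21, or -0.0223 and no call with total count scaling, and the thiol reductase PDIA3 one of 0.28.

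Proteasome subunits divided by type. PSMB8, PSMB9 and PSMB10 encode the catalytic subunits of the immunoproteasome, which interferons induce and which take the places of PSMB5, PSMB6 and PSMB7. PSMB9 had 5.841 and 6.144 CPM in C4-2-ENZ, against 1.592 and 1.602 CPM in C4-2-CON, 3.74-fold higher (log2 fold change 1.90, SE 0.141, edgeR adjusted p = 2.35e-07). PSMB8 rose 1.78-fold, to 7.973 ± 0.44 CPM in C4-2-ENZ, against 4.49 ± 0.108 CPM in C4-2-CON, and PSMB10 rose 1.8-fold, to 9.801 ± 0.416 CPM, against 5.428 ± 0.0259 CPM. All 3 rose with no overlap between groups, which also held for 40.4% of all genes tested. PSMB5, PSMB6 and PSMB7 had 93.59 ± 2.23, 92.99 ± 3.59 and 115.3 ± 2.65 CPM in C4-2-ENZ, against 107.8 ± 5.45, 100.4 ± 7.69 and 129.6 ± 2.78 CPM in C4-2-CON (SD, n = 2). PSMB5 and PSMB7 were called lower and PSMB6 was not called, and no call among them held with total count scaling. Reads of PSMB9 were 0.0611 and 0.0679 of those of PSMB6 in C4-2-ENZ libraries, against 0.0168 and 0.0151 in C4-2-CON libraries. The proteasome activator genes PSME1 and PSME2 did not rise: PSME2 was 1.25-fold lower, with a log2 fold change of -0.327, or -0.139 with total count scaling, and PSME1 had a log2 fold change of -0.06, which turned to 0.124 with total count scaling, and was then called higher. PSME3, of the nuclear activator, was called lower with TMM at a log2 fold change of -0.18 and had 0.01 with total count scaling.

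Of 22 genes for transcription and chromatin regulators of class I genes, 12 were higher, 5 lower and 5 not called, with a median log2 fold change of 0.20. The shares over all genes tested were 33.0% higher and 31.7% lower. Corrected for length and GC content, the list had 9 genes higher and 7 lower, and a median of 0.0441. NFKB1, an NF-kB subunit, rose 2.46-fold to 124.2 ± 0.367 CPM in C4-2-ENZ, against 50.56 ± 1.19 CPM in C4-2-CON. IRF1 and the NF-kB subunit gene RELB, chosen after their values were seen, rose 2.51-fold and 3.27-fold from low levels, to 11.41 ± 0.179 and 8.42 ± 0.629 CPM in C4-2-ENZ, against 4.537 ± 0.0766 and 2.58 ± 0.0248 CPM in C4-2-CON. EZH2, the methyltransferase of the Polycomb complex that can silence class I genes, fell to 44.96 ± 0.846 CPM in C4-2-ENZ, against 89.56 ± 0.689 CPM in C4-2-CON. ATF1, a factor of the X2 box, fell to 52.21 ± 0.129 CPM in C4-2-ENZ, against 92.48 ± 3 CPM in C4-2-CON. The subunits of the RFX factor, which binds the X box with NLRC5, were added to those named with their values known. RFX5 was 0.20 higher on the log2 scale and was not called once length and GC content were corrected for, and RFXAP and RFXANK had -0.21 and 0.16 and were not called (edgeR adjusted p = 0.109 and 0.0548).

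No interferon gene examined was detectable beyond a few reads. Of 9 interferon genes none passed the count filter, and the highest count in any library was 2. Of 13 genes for interferon receptors, their kinases and inhibitors, 11 were tested, with 7 higher, 2 lower and a median log2 fold change of 0.22. Among all genes tested, 33.0% were higher and 31.7% lower. JAK2 rose 1.93-fold, to 56.87 ± 0.86 CPM in C4-2-ENZ, against 29.47 ± 0.256 CPM in C4-2-CON. PTPN2, a phosphatase that restrains JAK kinase signalling, fell to 36.71 ± 0.454 CPM in C4-2-ENZ, against 59.64 ± 3.94 CPM in C4-2-CON. The kinase gene TYK2 rose 1.28-fold with TMM, but its log2 fold change was -0.06 with the length and GC correction. IFNAR2, a type I interferon receptor chain, was 1.28-fold lower and was not called with total count scaling or DESeq2.

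Molecules with a class I fold but other tasks did not follow 1 direction. Of 14 such genes 12 were tested, with 5 higher, 1 lower and 6 not called, and a median log2 fold change of 0.33. For all genes tested the shares were 33.0% higher and 31.7% lower, so 5 of 12 higher says little. MR1, which presents vitamin metabolites to MAIT cells, rose 2.87-fold to 18.09 ± 0.195 CPM in C4-2-ENZ, against 6.303 ± 0.145 CPM in C4-2-CON. FCGRT, the heavy chain of the neonatal Fc receptor and like MR1 a partner of beta-2-microglobulin, rose 4.52-fold to 7.401 ± 0.097 CPM in C4-2-ENZ, against 1.62 ± 0.276 CPM in C4-2-CON. RAET1L, a ligand of the NKG2D receptor, rose from few reads, with 76 and 84 counts in C4-2-ENZ and 5 and 14 in C4-2-CON. Its log2 fold change of 2.28 lay between 1.84 and 3.08 when 1 library was left out, the highest without C4-2-CON replicate 2. AZGP1, a secreted zinc-binding glycoprotein that folds without beta-2-microglobulin, fell to 25.33 ± 0.704 CPM in C4-2-ENZ, against 147.5 ± 0.17 CPM in C4-2-CON.

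Genes listed for the turnover of class I molecules, together with related membrane ubiquitin ligases, moved in both directions. Of 10 listed 8 were tested, with 6 higher and 2 lower and a median log2 fold change of 0.50. Among all genes, 33.0% were higher and 31.7% lower. Corrected for length and GC content, the list had 4 genes higher and 3 lower, and a median of 0.179. SUSD6, TMEM127 and WWP2, whose products act together to send class I molecules to lysosomes, rose 2.16-fold, 1.7-fold and 1.61-fold. SUSD6 had 33.77 ± 2.23 CPM in C4-2-ENZ, against 15.67 ± 0.769 CPM in C4-2-CON (SD, n = 2). The membrane ubiquitin ligase gene MARCHF8 rose 1.74-fold. Its relatives MARCHF9 and MARCHF1, chosen after their values were seen, were 1.18-fold higher and 1.25-fold lower. The length and GC correction lowered the log2 fold changes to 0.487 for TMEM127, 0.298 for WWP2 and 0.529 for MARCHF8, against 0.767, 0.687 and 0.802 without it, and all 3 were still called.

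**Figure D4:**
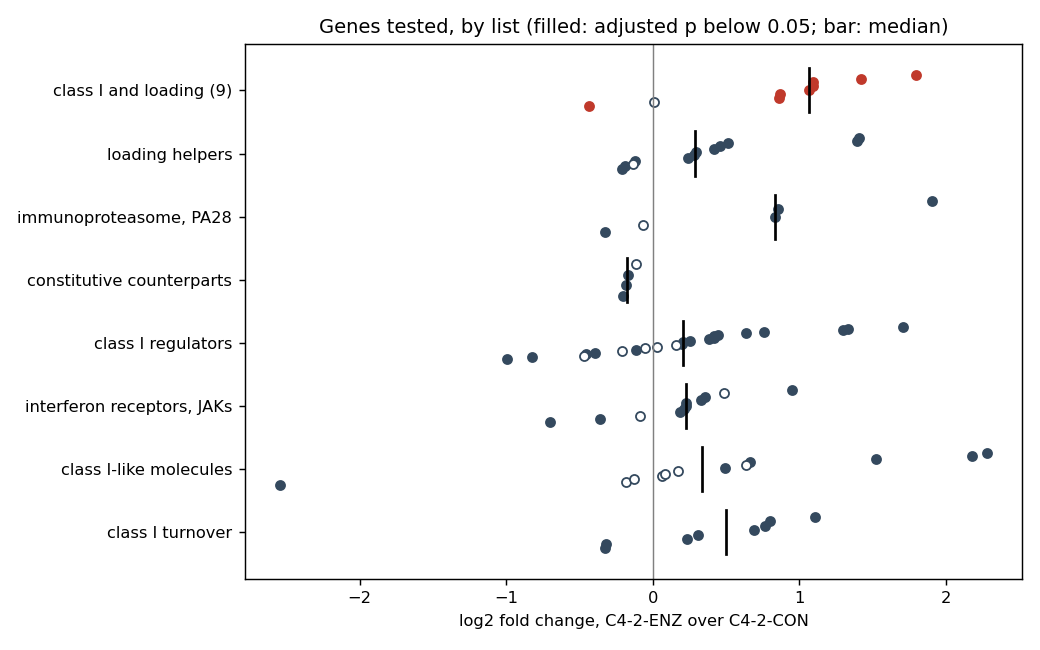
Log2 fold changes (C4-2-ENZ over C4-2-CON, TMM) of the genes tested in each list, 1 point per gene, filled where the adjusted p was below 0.05, with the median as a bar. The 9 class I and loading genes have a median of 1.06, the immunoproteasome and activator genes 0.83 and the constitutive counterparts -0.18.

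Genes with the most similar profile over the 4 libraries were found by the Euclidean distance between log2 CPM centred on each gene's mean and the average of the 9 genes treated the same way. Over 9889 protein-coding genes whose log2 CPM averaged 3 or more, the nearest 5 included MRTFA, RAB11FIP3, KLF13 and SIPA1L3, at distances of 0.0133 to 0.0268. MRTFA had 22.08 and 21.81 CPM in C4-2-ENZ, against 11.77 and 12.28 CPM in C4-2-CON. With the length and GC correction, which was no part of this measure, MRTFA had a log2 fold change of 0.476, against 0.866 without it. With 2 groups of 2 libraries the distance reflects mainly the size of the difference between groups.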

How the data were processed

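The members and gene lists were chosen with earlier results of these data known. The authors deposited 1 table of raw read counts per gene for each library, made with STAR 2.5.2b and HTSeq on GRCh38 (hg38), per the submitters' processing notes. The sources used here do not give the annotation release, counting mode or strand setting. The 5 rows that name no gene held 55.41% and 56.87% of records in C4-2-ENZ libraries and 74.4% and 71.08% in C4-2-CON libraries and were left out. Identifiers were matched without version to GENCODE 29 (56753 of 60483). Replicates differed by more than sampling noise (chi-square per degree of freedom 2.6 in the C4-2-ENZ pair and 6.46 in the C4-2-CON pair). Counts were filtered with filterByExpr (minimum count 10), scaled with TMM and tested with edgeR 4.0.16 in R 4.3.3 (quasi-likelihood F test, group as the only term, 2 residual degrees of freedom), with Benjamini-Hochberg adjustment over 20325 genes. The SE of a log2 fold change was taken as its absolute value over the square root of F. The pipeline was tested on simulated data. Alternatives were total count scaling, DESeq2 1.42.0, no count filter, a filter of 1 CPM in 2 libraries, the replicate number as a block, a spline correction for exonic length and GC content (5 degrees of freedom each), both of these together, each library left out, and, added after seeing the data, a crossed block. Named genes were all members, the whole of lists under 6 genes, otherwise up to 4 called genes of a list with the smallest adjusted p, and 5 genes of similar profile; others are marked as chosen after their values were seen, and 2 genes that the rule names are not reported here. Intervals of counting error were not needed, as no member was at 0.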

Additional observations from a re-analysis of the deposited data

How the results depend on the processing

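The 9 genes gave 7 higher and 1 lower in each alternative that kept all 4 libraries. Among all genes, 6705 of 20325 were higher in the main fit, against 8616 of 20325 with total count scaling. With DESeq2 5748 of 40992 were higher, and without a count filter 7560 of 40992. Over the 12 alternatives, log2 fold changes were 1.63 to 1.98 for HLA-B, 0.91 to 1.25 for HLA-C and 0.96 to 1.28 for HLA-E. They were 0.67 to 1.06 for HLA-F, 1.23 to 1.61 for TAP1 and 0.77 to 1.28 for TAPBP. For NLRC5 they were 0.38 to 1.09, and for B2M -0.48 to -0.25. With 1 library left out, HLA-C (0.987 to 1.16) and NLRC5 (0.688 to 1.09) lay on either side of 2-fold. TAP2 was called in none of the alternatives that kept all 4 libraries. TAP2 turned to -0.0373 with the filter of 1 CPM and -0.217 with the length and GC correction, with and without the replicate block. It was -0.0127 without C4-2-ENZ replicate 2 and -0.0563 without C4-2-CON replicate 2. Its range was -0.0563 to 0.0837 when 1 library was left out. The replicate block left 7 higher and 1 lower of the 9 genes; the deviations of same-numbered libraries correlated at r = -0.0228 over all genes tested and -0.214 over those whose log2 CPM averaged 3 or more, so the numbers were not taken as pairs. A crossed replicate block called 6987 genes higher and 6753 lower, against 6647 and 6444 with the block as numbered.

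The number of genes called lower in the other lists depended on scaling, while the falls of AZGP1, EZH2, ATF1 and PTPN2 held, at -2.35, -0.806, -0.636 and -0.514 with total count scaling. Over all lists 17 genes were lower, against 7 with total count scaling, 10 with DESeq2 and 9 without a count filter. Calls of lower also fell over all genes, from 6443 of 20325 to 4760 of 20325 with total count scaling. They were 4101 of 40992 with DESeq2 and 5710 of 40992 without a count filter, so the change was not particular to these lists. With the filter of 1 CPM they were 5892 of 15667, and with the length and GC correction 6933 of 20325. With total count scaling, 0 were lower among loading helpers, constitutive counterparts and turnover genes and 1 among receptor and kinase genes. With DESeq2, 0 constitutive counterparts, 1 receptor or kinase gene and 1 turnover gene were lower. Without a count filter, 0 loading helpers, 0 constitutive counterparts and 1 turnover gene were lower. With the filter of 1 CPM, 2 immunoproteasome and activator genes and 2 class I-like genes were lower, and 2 class I-like genes with the length and GC correction. With 1 library left out, median log2 fold changes were 0.782 to 0.858 for the immunoproteasome list and -0.185 to -0.139 for constitutive counterparts. They were 0.24 to 0.42 for class I-like genes and 0.448 to 0.55 for turnover genes. The median of all genes turned to 0.172 with total count scaling and 0.0236 without a filter. Total count scaling also turned the median of the constitutive counterparts (0.0128), PSMB6 (0.0766), PSMB7 (0.0201), PSME3 (0.00549), CALR (0.0676), ERAP2 (0.0511) and PSME1 (0.124). PSME1 also turned without a filter (0.0306) and with the length and GC correction (0.00863, or 0.00878 with the block), as did TYK2 (-0.0597, or -0.06 with the block) and RFXAP (0.0917, or 0.0918 with the block). Apart from the scaling itself, the cause was not tested.

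With 2 libraries a group, small differences such as that of TAP2 cannot be bounded closely, and HLA values remain subject to reads shared between genes.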
